A study of Mus musculus with 4 samples.

Results

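The tumor suppressor gene *Trp53*, which encodes p53, was followed with 9 genes counted here as its targets. The RNA-seq was of SV40 large T-immortalized tail tip fibroblasts (TTF). The targets are *Mdm2*, *Ccng1*, *Cdkn1a*, *Bax*, *Bbc3*, *Sesn2*, *Phlda3* and *Trp53inp1*, known as genes that p53 induces, and *Trp53inp2*. *Trp53inp2* is counted among them by its name, which follows that of *Trp53inp1*, and its induction by p53 was not tested here. All 10 genes were chosen by symbol from the 23924 genes of the expression matrix, all 10 were listed, and all 10 passed the filter on low expression. The cells came from male mice of the C57BL/6J-TgBAC8-2087 line. TG cells are Tg2087/+ and carry, in an autosome, copies of a part of the X-inactivation center that includes *Xist*. WT cells are from their +/+ littermates. Both genotypes were immortalized with SV40 large T, which left them tetraploid, and 2 libraries of each were sequenced. The age of the mice is not stated, nor whether replicate libraries represent different animals or cultures. The p-values thus measure the spread between these libraries, which may be technical. The tests draw each gene's own spread toward that of all tested genes.

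p53 is a transcription factor that is activated by DNA damage and other stress and that induces genes for cell cycle arrest, DNA repair, apoptosis and metabolic adaptation. *Mdm2* is itself a target, and its product, an E3 ubiquitin ligase, marks p53 for degradation, which closes a negative feedback loop. The large T antigen of SV40 binds p53 and blocks its activity on target genes, and it also binds the retinoblastoma proteins. All 4 libraries come from cells immortalized with it, and non-immortalized cells were not analysed here.

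Levels are FPKM, fragment counts divided by gene length and by the depth of the library, so they can be compared between genes. The libraries held 9465712 (WT 1), 14639946 (WT 2), 11923758 (TG 1) and 11063020 (TG 2) reads on genes. The reads behind each FPKM value were recovered from the steps between values, and counting error reached at most 8.0% of a target's level in a library, for *Bbc3*. *Xist* was at 0 and 0.108 FPKM in the WT libraries and at 2.31 and 2.28 in the TG libraries, as the labels have it. Of 12 fibroblast markers 10 were tested, with a summed level of 6317 to 6592 FPKM in WT and 5655 to 5925 in TG. In 7 of the 10 both TG libraries were lower than both WT libraries and in 2 higher, beside 20.3% and 30.2% of all tested genes. The median log2 fold change of these markers was -0.33, beside 0.07 for all tested genes. *Vim*, for the intermediate filament vimentin, was the highest of them at 2147 to 2547 FPKM, and *Lum*, for lumican, was at 0 in all libraries. *Pdgfrb* (56.8 and 57.3 against 31.7 and 26.8 FPKM, adjusted p = 0.0165 in limma) and *Col1a1* (867 and 789 against 407 and 539, adjusted p = 0.0491), named after their values were seen, were lower in TG. Of the markers of other cell types, *Ptprc* of leukocytes, *Krt5* of keratinocytes, *Tie1* of endothelium, *Tyr* of melanocytes and *Myod1* of muscle were at 0 in every library, and *Pecam1* of endothelium was above 0 in WT 1 only, at 0.398 FPKM. Summed levels were 1.92 to 3.15 FPKM for 8 keratinocyte markers, led by *Krt10* (1.40 to 2.45), and 5.12 to 12.3 for 7 leukocyte markers, which were almost entirely *Cd68* (5.12 to 12.1). The 6 skeletal muscle markers summed to 11.6 and 9.99 FPKM in WT and to 5.45 and 5.37 in TG, mostly from *Acta1*, which was lower in TG (adjusted p = 0.0374 in limma, 0.106 to 0.2 with any 1 library left out). The part of the fibroblast and muscle markers in the results below was not tested.

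p53 binds a response element made of a 10-base sequence in tandem, each copy with a core of C and G around a pair of A or T bases. In the 250 bases before each transcription start of RefSeq's promoter entries (GRCm38.p6), the best gapless match to the 20-base p53 consensus was taken, with at most 3 mismatches and the C and G of both cores (CNNG) kept. The consensus reads the same on both strands. Among the members, 9 had promoter entries, with 12 windows, and 4 windows of 4 genes held a match, while 1.14% of all 32851 windows of this length did. They are printed below 5′ to 3′ on the strand of the gene because they show how near these starts the closest element letters of each gene stand. Capitals mark the best match, and none of the printed stretches overlaps an exon of GENCODE M21.
*Cdkn1a*, chr17:29090888-29090975, plus strand: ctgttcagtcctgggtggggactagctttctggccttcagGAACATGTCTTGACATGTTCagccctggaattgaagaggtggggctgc
*Ccng1*, chr11:40755422-40755521, minus strand: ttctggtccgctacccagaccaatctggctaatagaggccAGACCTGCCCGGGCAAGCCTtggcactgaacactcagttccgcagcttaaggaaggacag
*Bbc3*, chr7:16309446-16309545, plus strand: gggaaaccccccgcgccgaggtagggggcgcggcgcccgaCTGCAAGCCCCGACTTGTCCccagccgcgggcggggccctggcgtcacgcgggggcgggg
*Trp53*, chr11:69580256-69580343, plus strand: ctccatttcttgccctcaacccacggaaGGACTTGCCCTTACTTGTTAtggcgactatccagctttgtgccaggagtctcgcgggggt

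The *Cdkn1a* match differed from the consensus at 1 position and lay at positions -51 to -32 from the upstream of its 2 starts. The starts are 2790 bases apart, and the best match at the downstream one had 7 mismatches. The *Ccng1* match also had 1 mismatch, at positions -195 to -176 from the start. The matches of *Bbc3* and *Trp53* had 3 mismatches each, at positions -97 to -78 and -75 to -56. Positions count from the start of the promoter entry, which is at base 69580359 for *Trp53*, 40755286 for *Ccng1* and 16309583 for *Bbc3*, the first of 3 entries, and differs from the end of the gene span given with each gene. The span of *Bbc3* begins further upstream, at base 16308398, so its match lies inside that span. In the windows of *Phlda3*, *Trp53inp2*, *Bax*, *Sesn2* and *Mdm2* the best matches had 5, 7, 7, 9 and 9 mismatches. A match is a description of the letters in the window, and a window without one says nothing of elements elsewhere in the gene.

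In the immortalized fibroblasts of both genotypes all 10 genes were expressed, over a 34.1-fold range. *Bax* had the highest mean of the 4 libraries (236 FPKM), followed by *Cdkn1a* (151), *Ccng1* (149), *Trp53* (142), *Phlda3* (65.6), *Mdm2* (42.9), *Trp53inp2* (24.0), *Sesn2* (15.2), *Bbc3* (8.96) and *Trp53inp1* (6.93). In this order 8 of the 9 pairs of neighbours had overlapping ranges over the 4 libraries. The exception was the step from *Trp53*, whose lowest library was at 134 FPKM, to *Phlda3*, whose highest was at 87.0. Among the genes above 0, the mean of *Trp53* was above that of 96.2% and the mean of *Trp53inp1* above that of 55.4%.

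**Figure D1:**
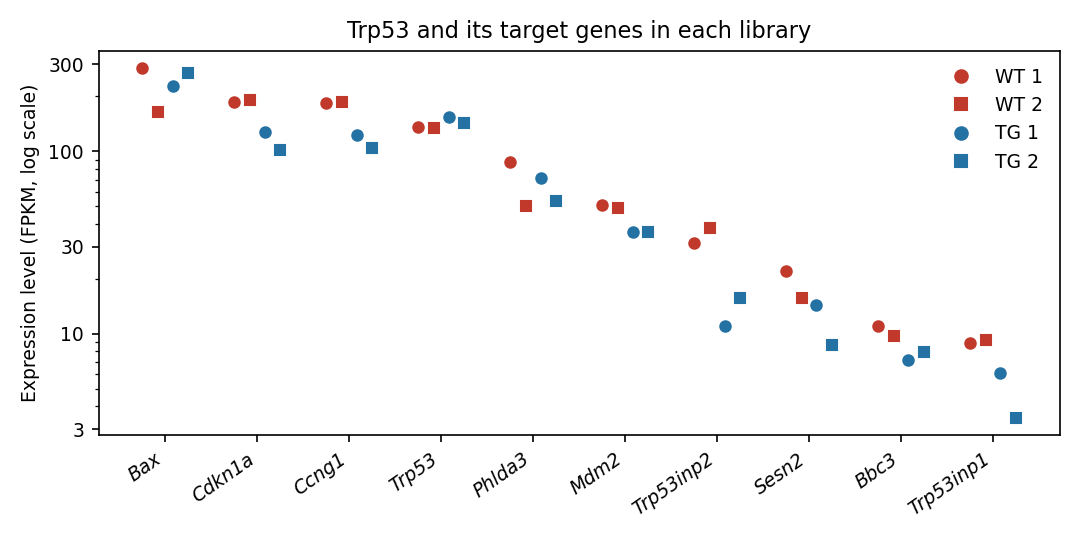
Expression level of each gene in each library in FPKM on a logarithmic axis, with WT in red and TG in blue, circles for library 1 and squares for library 2, and genes ordered by their mean. Both TG libraries lie under both WT libraries for 7 of the 9 targets, *Trp53* lies slightly higher in TG, and *Bax* and *Phlda3* overlap.

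TG was compared with WT to see which genes differ between the genotypes. The test was limma on log2(FPKM + 0.5) over 11524 genes, with Benjamini-Hochberg adjustment. WT and TG cells came from different animals and were immortalized as separate cells. The transgene and other differences between these cells cannot be told apart. Of the 10 genes, *Trp53inp2* fell in TG past both thresholds (adjusted p below 0.01, log2 fold change beyond 1 in either direction), to 38.5% of the WT level. At an adjusted p under 0.05 *Cdkn1a* fell as well, to 60.2% of WT. No member rose. Over all tested genes 0.469% were called lower and 0.607% higher by the stricter rule, and 1.54% were lower and 2.59% higher at an adjusted p under 0.05. *Trp53* itself was not among the changed genes. For 7 members both TG libraries were lower than both WT libraries, against 20.3% of all tested genes, and for 1 member, *Trp53*, both were higher, against 30.2%. The log2 fold change was negative for 8 of 10 members, against 42.5% of all tested genes, and its median was -0.57 for the members, -0.70 for the 9 targets and 0.07 for all tested genes. With 2 libraries against 2, an exact permutation test of a single gene cannot give a p below 0.33. In bulk RNA, fewer cells that express a gene and less of its RNA per cell cannot be told apart.

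**Figure D2:**
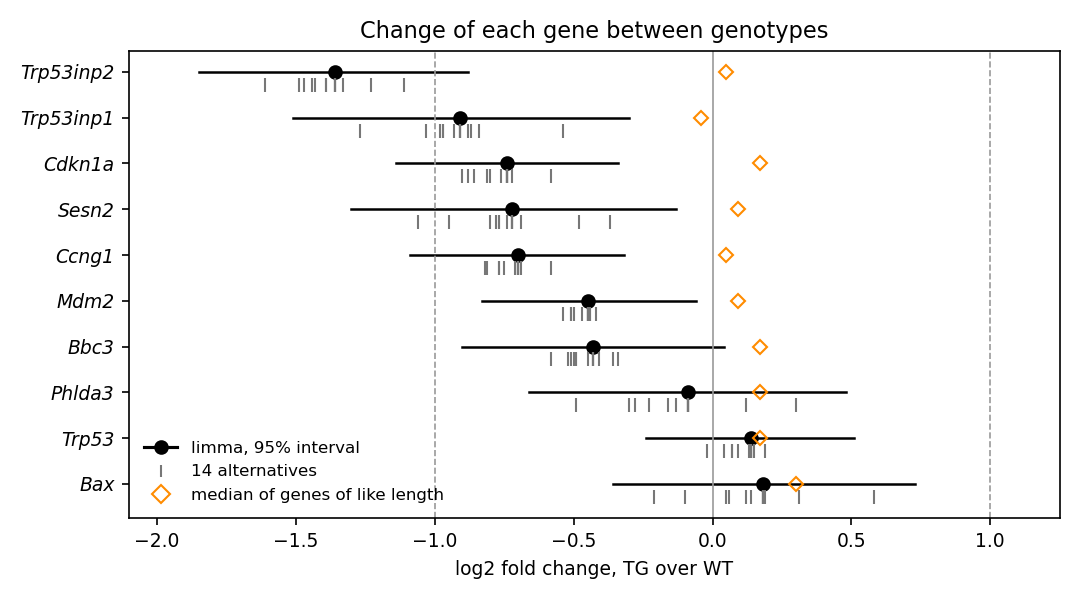
Log2 fold change of each gene, TG over WT, on the log2(FPKM + 0.5) scale, with its 95% interval from limma (black), its value under 14 alternative settings (grey ticks) and the median of tested genes in the same range of length (orange diamonds). The dashed lines mark a log2 fold change of 1 in each direction, and the interval of *Trp53inp2* runs from -1.85 to -0.88.

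*Trp53* (chr11:69580348-69591873, plus strand; coordinates of genes are those of RefSeq on GRCm38.p6) was at 136 and 134 FPKM in the WT libraries and at 154 and 143 in the TG libraries. These values rest on 2211 to 3381 reads. Both TG libraries were above both WT libraries, by a small margin. The means were 135 ± 1.08 and 149 ± 7.62 FPKM (SD, n = 2), and the log2 fold change was 0.14 (SE 0.17, adjusted p = 0.712 in limma, 95% interval -0.24 to 0.51). The median of tested genes of 1000 to 2000 bases was at 0.17, and after a trend with gene length was removed the fold change of *Trp53* was -0.02, so no direction can be given. Length here is the effective length behind the FPKM values (1719 bases for *Trp53*), recovered with the reads, and not the span of the coordinates. The annotation also holds a pseudogene of *Trp53*, and how reads that match both were counted is not stated.

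*Mdm2* (chr10:117688875-117710758, minus strand), for the ligase that degrades p53, was at 50.5 and 48.6 FPKM in WT and at 36.3 and 36.2 in TG. The groups did not overlap, and in each genotype the libraries lay close together. The means were 49.5 ± 1.35 and 36.2 ± 0.0409 FPKM (SD, n = 2). A log2 fold change of -0.45 (SE 0.17, 95% interval -0.83 to -0.06) did not pass the test (adjusted p = 0.187 in limma).

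*Ccng1* (chr11:40748552-40755309, minus strand) encodes cyclin G1, which recruits a phosphatase to MDM2 and so takes part in the same feedback. It was at 183 and 186 FPKM in WT and at 123 and 104 in TG, from 3847 to 9078 reads. Both TG libraries were clearly under the WT libraries. The log2 fold change was -0.70 (SE 0.17, 95% interval -1.09 to -0.32), with an adjusted p of 0.0522 in limma.

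*Cdkn1a* (chr17:29090979-29100722, plus strand) encodes p21, the inhibitor of cyclin-dependent kinases through which p53 arrests the cell cycle. It was at 186 and 192 FPKM in WT and at 127 and 101 in TG, from 2107 to 5301 reads. The WT libraries were nearly equal and both TG libraries were lower. The means were 189 ± 3.94 and 114 ± 18.1 FPKM (SD, n = 2), and the log2 fold change was -0.74 (SE 0.18, adjusted p = 0.0495 in limma, 95% interval -1.14 to -0.34). *Cdkn1a* and *Ccng1* had nearly the same level in each of the 4 libraries, a likeness noticed after the values were seen. A link between level and promoter match was not tested. The adjusted p of *Cdkn1a* sits at the threshold of 0.05 and was above it with any 1 of the 4 libraries left out, with log2 fold changes of -0.90 (TG 1), -0.58 (TG 2), -0.76 (WT 1) and -0.72 (WT 2) and adjusted p-values of 0.0654, 0.237, 0.134 and 0.247. An unconfirmed transcript is annotated on the opposite strand of *Cdkn1a*, and the strand setting of the counting is not stated.

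*Bax* and *Bbc3* act in apoptosis. *Bax* (chr7:45461695-45466903, minus strand), whose product permeabilizes the mitochondrial outer membrane, was at 285 and 165 FPKM in WT and at 227 and 268 in TG. The WT libraries enclosed the TG libraries, with WT 2 lower than WT 1 by a log2 difference of -0.79. Between genotypes it differed by 0.18 on the log2 scale (SE 0.25, adjusted p = 0.737 in limma, 95% interval -0.36 to 0.73), and it had the opposite sign, -0.21, without WT 2. *Bax* has the shortest effective length of the genes, 720 bases. The tested genes of up to 1000 bases had a median log2 fold change of 0.30 between genotypes and of -0.24 between WT 2 and WT 1. Another gene is annotated across *Bax* on the same strand.

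*Bbc3* (chr7:16308398-16318334, plus strand) encodes PUMA, a BH3-only protein that frees BAX and BAK from their inhibitors. It was at 11.0 and 9.68 FPKM in WT and at 7.16 and 7.97 in TG, from 156 to 259 reads. The groups did not overlap. A log2 fold change of -0.43 (SE 0.21, adjusted p = 0.299 in limma, 95% interval -0.90 to 0.04) did not pass the test.

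*Sesn2* and *Phlda3* restrain growth signalling. *Sesn2* (chr4:132492804-132510456, minus strand) encodes sestrin 2, a leucine sensor that holds back mTORC1, and was at 22.0 and 15.7 FPKM in WT and at 14.3 and 8.66 in TG. TG 1 was close below WT 2, and TG 2 was the lowest library. The log2 fold change was -0.72 (SE 0.27, adjusted p = 0.170 in limma, 95% interval -1.30 to -0.13). It was -0.37 without TG 2, -0.48 without WT 1, -0.95 without WT 2 and -1.06 without TG 1.

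*Phlda3* (chr1:135766085-135769134, plus strand), whose product competes with AKT for membrane lipids, was at 87.0 and 50.1 FPKM in WT and at 71.6 and 53.5 in TG. As for *Bax*, the WT libraries enclosed the TG libraries, and WT 2 was lower than WT 1 by a log2 difference of -0.79. TG differed from WT by -0.09 on the log2 scale (SE 0.26, adjusted p = 0.888 in limma, 95% interval -0.66 to 0.48), and it was 0.30 without WT 1 and 0.12 without TG 2. *Phlda3* lies 0.398 Mb from *Lmod1* and 0.0672 Mb from *Tnnt2*, muscle genes that were called lower in TG, with log2 fold changes of -1.57 and -1.17 and adjusted p-values of 0.0012 and 0.00665 in limma. Without WT 1 or WT 2 these were 0.0359 and 0.0446 for *Lmod1* and 0.0486 and 0.105 for *Tnnt2*, which was also above 0.01 without TG 1 (0.03) or TG 2 (0.0169). Of the 14 tested genes within 0.5 Mb of it, 3 had an adjusted p under 0.05, the third being *Kif21b* (-1.11, adjusted p = 0.0286), and the log2 fold changes ran from -1.57 to 0.63 with a median of -0.08.

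The last pair are the p53-inducible nuclear proteins, which act in stress responses and in autophagy. *Trp53inp1* (chr4:11156441-11174379, plus strand) takes part in p53-dependent cell death and was at 8.90 and 9.26 FPKM in WT and at 6.08 and 3.47 in TG. Both TG libraries were lower, and they lay further apart than the WT libraries. In limma the change was -0.91 on the log2 scale (SE 0.27, adjusted p = 0.0954 in limma, 95% interval -1.51 to -0.30). It was -0.54 without TG 2 and -1.27 without TG 1.

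*Trp53inp2* (chr2:155381811-155389847, plus strand), named for its likeness to *Trp53inp1*, acts in autophagosome formation and as a coactivator of nuclear receptors. It was at 31.4 and 37.9 FPKM in WT and at 11.0 and 15.7 in TG, from 496 to 2100 reads. Both TG libraries were far under both WT libraries. The means were 34.7 ± 4.57 and 13.3 ± 3.31 FPKM (SD, n = 2), a level 2.57-fold higher in WT on the log2(FPKM + 0.5) scale, and the log2 fold change was -1.36 (SE 0.22, adjusted p = 0.0082 in limma, 95% interval -1.85 to -0.88). The log2 fold change stayed between -1.61 and -1.11 with each library left out, but the adjusted p was 0.059 without WT 1, 0.145 without WT 2 and 0.0369 without TG 1, against 0.00449 without TG 2. It was 0.0885 with all genes above 0 in the fit, 0.0531 without a variance trend, 0.0182 with the length trend removed, 0.0109 with quantile normalization and 0.0101 with a pseudocount of 0.1. Among the 16 tested genes within 0.5 Mb of *Trp53inp2* the log2 fold changes ran from -0.88 (*Ncoa6*) to 0.80 (*Eif6*), chosen as the extremes, with a median of 0.21, and no adjusted p in limma was under 0.0608.

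On the recovered reads, limma's voom method called *Trp53inp2* (log2 fold change -1.47, adjusted p = 1.2e-05) and *Trp53inp1* (-1.03, adjusted p = 0.00628) lower, 2 of 10 members against 1.32% of all genes it tested. At an adjusted p under 0.05 it placed 5 members lower, against 4.40%. The others were *Cdkn1a* (-0.80, adjusted p = 0.00195), *Ccng1* (-0.77, adjusted p = 0.00184) and *Sesn2* (-0.77, adjusted p = 0.0492). *Mdm2* was at -0.51 (adjusted p = 0.0798) and *Bbc3* at -0.51 (adjusted p = 0.331).

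The level of each target was also divided by that of *Trp53* in the same library. *Cdkn1a* stood at 1.37 and 1.43 times the level of *Trp53* in WT and at 0.821 and 0.704 times in TG. *Ccng1* stood at 1.35 and 1.38 times in WT and at 0.798 and 0.727 times in TG. Both were thus above *Trp53* in both WT libraries and under it in both TG libraries. For *Mdm2* the ratios were 0.372 and 0.362 in WT and 0.235 and 0.253 in TG, and for *Trp53inp2* they were 0.231 and 0.282 in WT and 0.0713 and 0.109 in TG. The ratio was lower in both TG than in both WT libraries for 7 of the 9 targets, against 30.0% of all tested genes set over *Trp53* in the same way. *Bax* (2.10 and 1.23 against 1.47 and 1.87) and *Phlda3* (0.641 and 0.373 against 0.465 and 0.373) were the exceptions.

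**Figure D3:**
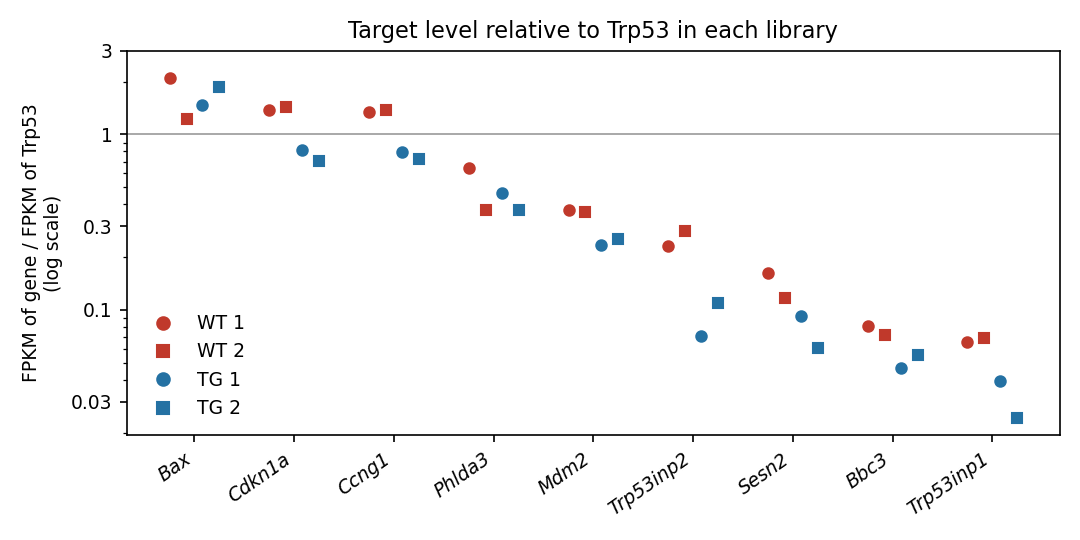
FPKM of each target divided by the FPKM of *Trp53* in the same library, on a logarithmic axis, with WT in red and TG in blue, circles for library 1 and squares for library 2. *Cdkn1a* and *Ccng1* cross the line at 1, where a target equals *Trp53*, between WT and TG.

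The genes whose pattern over the 4 libraries was nearest were found by the distance between centred log2(FPKM + 0.5) values. For *Trp53inp2* they were *Lrrc75b* (distance 0.081), *Daam2* (0.168), which acts in Wnt signalling, and *Tbx18* (0.183), a T-box transcription factor, and only 4 genes lay within 0.2. *Lrrc75b* had the same log2 fold change, -1.36 (adjusted p = 0.00689 in limma), and its adjusted p was likewise above 0.01 without WT 1 (0.059), WT 2 (0.129) or TG 1 (0.0336). For *Trp53*, whose libraries differed little, 1081 genes lay within 0.2, the nearest being *Ppp2r2d* (0.020), *Map9* (0.023) and *Sec11a* (0.024). These are likenesses over 4 points that share 2 genotypes.

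Upstream of p53, none of the 21 tested regulators of 22 listed passed an adjusted p of 0.05 in limma in either direction. Of all tested genes 1.54% were lower and 2.59% higher by this rule. In 8 both TG libraries were lower, in 5 higher and in 8 overlapping, beside 20.3% lower and 30.2% higher over all tested genes, and the median log2 fold change was -0.10. By voom 3 of the regulators were lower at an adjusted p under 0.05, beside 4.40% of all genes it tested. They were the acetyltransferase genes *Ep300* (-0.77, adjusted p = 0.0126) and *Crebbp* (-0.91, adjusted p = 0.00416) and the kinase gene *Hipk2* (-0.98, adjusted p = 0.00466), named after their values were seen. *Cdkn2a*, which encodes the MDM2 antagonist ARF and the kinase inhibitor p16 from overlapping reading frames, was the highest, at 813 and 543 FPKM in WT and 584 and 848 in TG (log2 fold change 0.08, adjusted p = 0.896 in limma). *Brd7*, for a bromodomain cofactor of p53, was at 53.2 and 50.3 in WT and 36.8 and 49.5 in TG (adjusted p = 0.492). *Mdm4*, for the partner of MDM2 that masks the activation domain of p53, was at 4.84 and 7.84 in WT and 7.53 and 5.49 in TG (adjusted p = 0.936). The relatives *Trp63* and *Trp73* were at or near 0, with at most 11 and 6 reads in a library, and were not tested.

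Among other targets of p53, 1 of 12 arrest and repair genes and 1 of 11 tested apoptosis genes were lower at an adjusted p under 0.05 in limma, beside 1.54% of all tested genes, and none was higher. *Zmat3*, for an RNA-binding regulator of splicing, was at 14.1 and 17.3 FPKM in WT and 6.74 and 8.11 in TG (log2 fold change -1.03, adjusted p = 0.027). *Trp53i11* was at 3.46 and 4.41 in WT and 1.27 and 0.855 in TG (-1.51, adjusted p = 0.0261). In both genes the groups were clearly apart. The adjusted p of *Zmat3* was above 0.05 without TG 1 (0.121), WT 1 (0.0876) or WT 2 (0.246), and that of *Trp53i11* without TG 2 (0.0743), WT 1 (0.109) or WT 2 (0.272), with log2 fold changes of -1.17 to -0.89 and -1.67 to -1.32. Both TG libraries were lower than both WT libraries for 6 of 12 arrest and repair genes and for 6 of 11 apoptosis genes, beside 20.3% of all tested genes, and higher for 2 and 3 of them, beside 30.2%. The median log2 fold changes were -0.26 and -0.17. Voom called *Zmat3* (-1.15, adjusted p = 2.3e-04) and *Trp53i11* (-1.97, adjusted p = 0.00567) lower past both thresholds. At an adjusted p under 0.05 it placed 2 arrest and repair genes and 3 apoptosis genes lower and 1 apoptosis gene higher, beside 4.40% lower and 3.61% higher of all genes it tested. The others were *Btg2* (-0.74), *Apaf1* (-0.71), *Ei24* (-0.75) and, higher, *Aen* (0.73), of which *Btg2*, *Apaf1* and *Aen* were named after their values were seen.

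The most highly expressed genes of these lists did not pass the test. *Plk2*, for a polo-like kinase, was at 157 and 117 in WT and 132 and 160 in TG (adjusted p = 0.836 in limma), and *Ninj1*, for a membrane protein of plasma membrane rupture, was at 29.8 and 29.7 against 45.6 and 33.1 (adjusted p = 0.332). *Ei24* was at 70.2 and 80.6 against 48.6 and 44.9 (log2 fold change -0.68, adjusted p = 0.0592), and *Siva1* at 32.7 and 31.4 against 42.9 and 42.8 (adjusted p = 0.223). Of the 12 tested metabolic and stress targets none was called, beside 0.469% called lower and 0.607% higher of all tested genes. In 9 the genotypes overlapped, as in 5705 of the 11524 tested genes, and in 3 both TG libraries were higher, beside 30.2%. The median was 0.03, beside 0.07 for all tested genes. The list included *Gpx1*, for a glutathione peroxidase, at 539 to 622 FPKM (adjusted p = 0.82 in limma) and *Ddit4*, for an inhibitor of mTORC1, at 251 and 99.6 in WT and 91.3 and 180 in TG (adjusted p = 0.731).

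Of 6 tested secreted p53-responsive genes 1 rose past both thresholds, beside 0.607% of all tested genes. In 3 both TG libraries were lower than both WT libraries and in 3 higher, beside 20.3% and 30.2%. *Igfbp3*, for a binding protein of insulin-like growth factors, was at 0 and 1.13 FPKM in WT and 18.0 and 13.6 in TG, from 0, 38, 492 and 346 reads (log2 fold change 4.16, adjusted p = 0.00111 in limma). It differed between the WT libraries as well, and without WT 1 the log2 fold change was 3.31 (adjusted p = 0.0203). With WT 1 at 0 its size depended on the method, at 3.51 with a pseudocount of 1, 5.49 with 0.1, 6.11 with voom and 5.02 without WT 2, and the adjusted p was 0.0688 with all genes above 0 in the fit. *Thbs1*, for thrombospondin 1, was at 794 and 837 in WT and 499 and 495 in TG (log2 fold change -0.71, adjusted p = 0.0534 in limma, 4.4e-04 with voom). At an adjusted p under 0.05 voom placed 2 genes of the list lower and 1 higher, beside 4.40% and 3.61% of all genes it tested. The median log2 fold change of the list in limma was -0.06.

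p53 also represses cell cycle genes indirectly, through p21 and the DREAM complex. Of 30 such genes 1 was called higher and none lower, beside 0.607% and 0.469% of all tested genes. The called gene was *Pcna*, for the sliding clamp of DNA polymerases. It rose from 185 and 152 FPKM in WT to 492 and 373 in TG (log2 fold change 1.35, adjusted p = 0.00562 in limma). Its adjusted p was above 0.01 without WT 1 (0.0482), WT 2 (0.11) or TG 1 (0.0293), at log2 fold changes of 1.50, 1.21 and 1.15. *Cdc20*, the activator of the anaphase-promoting complex and the highest of the list, was at 370 and 254 in WT and 345 and 490 in TG (adjusted p = 0.365). In 14 genes both TG libraries were higher, in 2 lower and in 14 overlapping, against the shares of 30.2% and 20.3% of all tested genes given above. The log2 fold change was positive in 23 of 30, beside 57.5% of all tested genes, with a median of 0.18 beside 0.07 for all tested genes.

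Relatives of the members were compared last. Of 9 tested paralogs 1 was higher at an adjusted p under 0.05 in limma and none was lower, beside 2.59% and 1.54% of all tested genes. *Phlda1* was at 28.1 and 35.4 FPKM in WT and 60.0 and 69.5 in TG (log2 fold change 1.02, adjusted p = 0.0162 in limma), unlike its paralog *Phlda3* above, a difference between genes that was not tested. Its adjusted p was 0.0753 without TG 2, 0.0945 without WT 1 and 0.0859 without WT 2. Of the 12 tested genes of the BCL2 family outside the members none was called, beside 0.469% lower and 0.607% higher of all tested genes. Their median was 0.06. *Bak1*, for the partner of BAX, was at 174 and 225 in WT and 229 and 191 in TG (adjusted p = 0.872), and *Mcl1*, for an inhibitor of apoptosis, at 60.3 and 62.3 against 85.4 and 69.0 (adjusted p = 0.365).

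**Figure D4:**
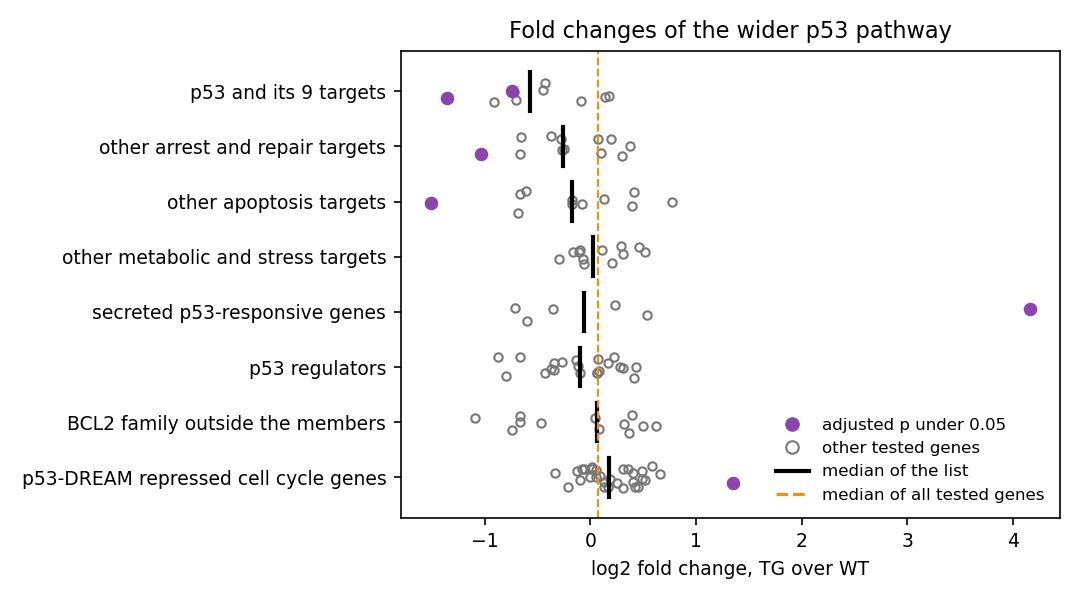
Log2 fold change, TG over WT, of each tested gene of the p53 pathway, grouped by list, with genes at an adjusted p under 0.05 in limma filled in purple, the median of each list as a black bar and the median of all tested genes as a dashed line. The medians run from -0.57 for p53 and its 9 targets to 0.18 for the cell cycle genes, and *Igfbp3* lies far to the right at 4.16.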

How the data were processed

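Paired-end reads came from strand-specific cDNA of 2 WT and 2 TG libraries. With Rsubread the authors aligned them to mm10, then counted reads per gene in R and deposited FPKM values, which they made from the counts with an R package. The authors tested the counts with DESeq. The deposited matrix holds FPKM, so limma 3.58.1 (R 4.3.3; linear models, empirical Bayes with trend) was used on log2(FPKM + 0.5), for genes whose mean FPKM reached 0.5. The pseudocount understates the changes of low genes. Calls needed an adjusted p below 0.01 and a log2 fold change beyond 1 in either direction.

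Whole reads were recovered from the FPKM steps for 99.95% of the 15530 genes above 0, with no value more than 0.011 from a whole number, and voom was run on them with median-ratio size factors. For 825 genes the exonic length settled a common factor. The recovered reads make up 99.37% to 99.47% of the totals, WT 2 had 1.55 times the depth of WT 1, and intervals from reads cover counting error only. Gene positions and promoters came from RefSeq on GRCm38.p6, the build of mm10, and were matched by symbol.

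The members and lists were chosen with earlier results of these data known. The genes named are the members, the genes of each list at an adjusted p under 0.05 and its 2 most expressed, *Mdm4*, *Cdkn2a*, *Trp63*, *Trp73* and *Xist*, the highest and lowest of each marker list, and the 3 nearest patterns of *Trp53* and *Trp53inp2*. Others are named for their position. Of the genes this rule picks, 2 are not reported here. The alternatives were other pseudocounts, filters, scalings and thresholds, no variance trend, a replicate block, voom, and each library left out. The length trend was added after seeing the data. In each library a lowess curve against log effective length was fitted to the log2 level minus the gene's mean over all libraries. The curve was subtracted and limma was run again. Limma and voom were tried on simulated data, with 1 spread setting for all genes, assumed and not estimated from these data, and no length trend. The changed genes were drawn only from those above a minimum of expected reads, so low genes are not covered. Of 200 genes changed by a log2 fold change of 1, limma called 60 and voom 82, beside 3 and 0 unchanged genes. Of 199 genes changed by 2, limma called 195 and voom 199, beside 9 and 0 unchanged genes. Python 3.11.15 and scipy 1.17.1 were used. DNA FISH was not analysed here.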

Additional observations from a re-analysis of the deposited data

How the results depend on the processing

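Over 14 alternatives 7 members kept a negative log2 fold change. They are the 7 whose TG libraries were both lower, the alternatives reuse the same libraries, and the share of all tested genes was not computed. Members called lower (1, *Trp53inp2*) numbered 0 with all genes above 0, without a variance trend, with a pseudocount of 0.1, quantile normalization or the length trend removed, 2 with voom, and 0 to 1 with 1 library left out. All genes called lower (54) and higher (70) numbered 1 and 0 with all genes above 0, 6 and 3 without a variance trend, 152 and 125 with voom, and 121 and 229 at an adjusted p under 0.05 with the fold change threshold kept. With 1 library left out, 1 to 47 were lower and 0 to 66 higher, and the lone library of a genotype was assumed to vary like the others. Quantile normalization gave 55 and 47, and with the length trend removed 28 were higher. The cause of these changes was not tested.

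The deviations of WT 1 and TG 1 from the means of their genotypes correlated at -0.03 over 11524 genes. Whether libraries with the same replicate number share a batch is not stated, and 1 correlation cannot settle it. With the replicate block 8 genes were lower and 12 higher, 0 of them members, and the adjusted p was 0.0282 for *Trp53inp2* and 0.122 for *Cdkn1a*.

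The sign turned for *Trp53* (-0.02), *Bax* (-0.10), *Cdkn2a* (-0.15), *Bak1* (-0.16), *Vim* (-0.00) and *Sec11a* (-0.09) with the length trend removed, for *Cdkn2a* (-0.10), *Plk2* (-0.01), *Bak1* (-0.03) and *Mdm4* (-0.01) with quantile normalization, and for *Mdm4* with upper-quartile scaling (-0.01) and voom (-0.03). With 1 library left out it also turned for *Bax* (-0.21 to 0.58), *Phlda3* (-0.49 to 0.30), *Cdkn2a* (-0.21 to 0.37), *Plk2* (-0.11 to 0.31), *Ddit4* (-0.97 to 0.36), *Bak1* (-0.11 to 0.27), *Cd68* (-0.96 to 0.12) and *Mdm4* (-0.27 to 0.38). With at most 2 mismatches 2 promoter windows of members held a match in place of 4, and 0.271% of all windows did.

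The depth leaves counting errors of at most 8.0% for the members, and the comparison is limited by having 2 libraries of each genotype. The standard errors of limma draw each gene's own spread toward a trend over all tested genes. *Mdm2*, with log2 differences of -0.06 (WT) and -0.00 (TG) between libraries, and *Trp53*, with -0.02 and -0.10, both had an SE of 0.17.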

Other observations

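Across all tested genes the median log2 fold change moved with the effective length of the gene. It was 0.30 for the 1190 genes of up to 1000 bases, 0.17 for the 2547 of 1000 to 2000, 0.09 for the 2361 of 2000 to 3000, 0.05 for the 1862 of 3000 to 4000 and -0.04 for the 3559 longer ones. Between WT 2 and WT 1 the medians in the same order were -0.24, -0.12, -0.03, 0.03 and 0.13, and between TG 2 and TG 1 they were -0.00, -0.01, -0.03, -0.07 and -0.06. After this trend was removed, the log2 fold changes of *Cdkn1a* (-0.88, adjusted p = 0.0351 in limma), *Ccng1* (-0.75, adjusted p = 0.0421) and *Trp53inp2* (-1.39, adjusted p = 0.0182) were under an adjusted p of 0.05. The share of all tested genes under 0.05 was not computed for this fit. By the stricter rule 0 members were called, and 41 of all tested genes were lower and 28 higher.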
